A study of Mus musculus with 6 samples.

Results

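Lmx1a and Lmx1b, the paired LIM-homeodomain genes of the Lmx1 group, and C130021I20Rik, a non-coding gene beside Lmx1b on chromosome 2, were examined in RNA-seq of the maxillary prominences of mouse embryos at E12.5. They are 3 of the 53801 genes counted, found by their symbols, and they were chosen by their CPM and log2 fold change between the genotypes in these same samples, so that these values are given as a description without a test. Each genotype had 3 samples on a C57BL/6J background. The WT embryos are labelled wild type, with no transgene named. The Wnt1cre; Rosa26Dlx2/- embryos (Dlx2OE) carried Cre under control of the Wnt1 promoter, which is active in the neural crest, and 1 Rosa26 CAG-LSL-Dlx2-3xFlag allele, from which Cre removes a stop cassette so that tagged Dlx2 is made in cells of neural crest origin. Since no group carried Cre without the knock-in, or the knock-in without Cre, their effects cannot be told apart. In the Dlx2OE samples, Dlx2 was higher with a log2 fold change of 1.60 (SE 0.118, adjusted p = 0.00241, edgeR's quasi-likelihood F test, Benjamini-Hochberg adjusted).

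LIM-homeodomain proteins bind DNA through a homeodomain and bind cofactors, chiefly Ldb1, through a pair of LIM domains. Lmx1a marks the roof plate of the neural tube and, with Lmx1b, the progenitors of midbrain dopaminergic neurons. Lmx1b is also known for dorsal identity of the limb, where it acts downstream of Wnt7a, and it is required in serotonergic neurons, in podocytes of the kidney and in periocular mesenchyme of neural crest origin. In humans, loss of a LMX1B copy causes nail-patella syndrome. No function is given here for C130021I20Rik.

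Lmx1b and C130021I20Rik lie head to head. In GENCODE M21 on GRCm38 (mm10), Lmx1b (ENSMUSG00000038765) spans 33560965 to 33640511 on the reverse strand of chromosome 2, and C130021I20Rik (ENSMUSG00000052951) spans 33641193 to 33646354 on the forward strand, with 681 bases between them. Although C130021I20Rik is classed there as antisense, neither gene shares exon sequence with another gene. RefSeq draws the pair closer. The start sites of its promoter table are 33641098 for Lmx1b and 33641193 for C130021I20Rik, with 94 bases between them, and its longest extent of Lmx1b, up to 33641208, overlaps C130021I20Rik by 16 bases. Lmx1a (ENSMUSG00000026686) is on the forward strand of chromosome 1, from 167689237 to 167848741. The main coding transcript of each Lmx1 gene has 8 exons, with a coding length of 1146 bases in Lmx1a and 1116 in Lmx1b. The coding sequences were identical at 804 of 1096 aligned bases (73.4%). The longest identical run between these transcripts was 21 bases, shorter than the reads of 150 bases. The libraries did not mark strand. If the counting ignored strand, which is not stated, read pairs of either strand within an exon were counted for the gene annotated there.

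**Figure D1:**
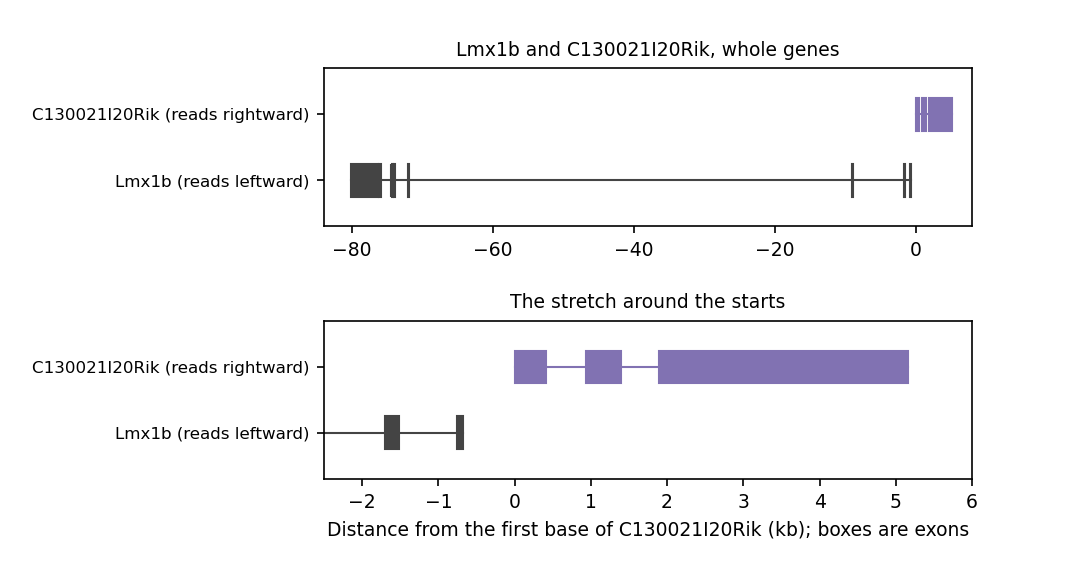
Exons (boxes) and introns (lines) of Lmx1b and C130021I20Rik in GENCODE M21, drawn to scale against the distance in kb from the first base of C130021I20Rik. The upper panel shows both genes whole and the lower panel shows the stretch around their starts, where the genes are read away from each other with 681 bases between them.

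The DNA between the start sites is shown because it precedes both of the genes that were higher in Dlx2OE. It is read here on the strand of Lmx1b (chr2:33641099-33641348, reverse strand, GRCm38.p6, RefSeq), ending at the last base before the Lmx1b start. The 94 capitals are the stretch between the start sites, and the 156 bases in lower case lie in the first exon of C130021I20Rik, which is read from the other strand.

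Lmx1b upstream: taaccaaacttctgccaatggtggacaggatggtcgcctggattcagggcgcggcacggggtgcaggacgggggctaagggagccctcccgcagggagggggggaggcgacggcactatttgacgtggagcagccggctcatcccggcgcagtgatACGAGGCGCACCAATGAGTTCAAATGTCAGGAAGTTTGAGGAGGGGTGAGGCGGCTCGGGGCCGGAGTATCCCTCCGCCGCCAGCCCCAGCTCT

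Promoter windows of 300 bases, from 250 before to 50 after the start site, were found for 3 of the 3 genes among 32851 windows of that length. The windows of Lmx1b and C130021I20Rik share 194 bases. Both were rich in CpG, with 24 CpG in the Lmx1b window and 34 in that of C130021I20Rik, more than in 80.0% and 92.3% of all windows. The Lmx1a window held 12, more than 60.4% of windows. GC content was 65.7%, 73.3% and 59.3% in the same order. A search of both strands for TAATTA and TAATTG, core letters bound by many homeodomain proteins, gave 0 matches in the 3 windows. Only 5.29% and 8.0% of all windows hold these letters, so 0 matches is the common outcome for so few windows. The letters CTTTGA of TCF/LEF sites (in 16.0% of windows) and TATAAA (in 13.6%) also gave 0 matches. CCAAT, present in 37.4% of windows, was found at 2 places in the Lmx1b window and at 1 place in that of C130021I20Rik, and not in that of Lmx1a. The match in the C130021I20Rik window is the CCAAT near the start of the capitals above, so the windows share it. These matches are letters in short windows, and none of them was tested for binding.

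The counts on genes ranged from 26155500 to 31308813 per sample, and the floor of 3 counts was 0.0955 to 0.111 CPM. CPM are counts scaled to a common library size, here by the TMM method, and levels of different genes are compared as CPM per kb of exon. Over all 17514 genes kept for the test, 546 (3.12%) passed a log2 fold change beyond 1 with an adjusted p under 0.05 and were called, of which 262 (1.5%) were higher and 284 (1.62%) lower in Dlx2OE. At any fold, 6.45% had an adjusted p under 0.05. DESeq2, the tool of the study, called 4.85% of the 18417 genes that it tested, 2.45% higher and 2.4% lower. Read pairs on no annotated gene made up 5.03% to 5.43% of the WT libraries and 5.75%, 7.81% and 14.7% of Dlx2OE samples 1, 2 and 3. All 3 genes passed the filter on low counts. Lmx1b and C130021I20Rik exceeded 10 counts in only 2 of 3 WT samples and so passed through the Dlx2OE samples, in which they were high.

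Lmx1b was low in WT maxillary prominences and higher in every Dlx2OE sample. Its counts in WT samples 1, 2 and 3 were 44, 13 and 7, and in Dlx2OE samples 1, 2 and 3 they were 475, 355 and 228. As CPM, these were 1.5, 0.431 and 0.225 in WT against 16.0, 11.3 and 8.42 in Dlx2OE. The groups did not overlap, as they did not for 16.7% of all genes tested that were higher in Dlx2OE, and the lowest Dlx2OE sample was 5.60 times the highest WT sample. The means were 0.720 ± 0.686 CPM in WT against 11.9 ± 3.84 CPM in Dlx2OE (SD, n = 3 each), with a log2 fold change of 4.05 (SE 0.620) or 16.6-fold. WT sample 1 held 44 of the 64 WT counts, and without it the log2 fold change was 5.16.

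C130021I20Rik followed the same pattern at a higher level. It had 49, 24 and 4 counts in WT samples 1, 2 and 3 against 819, 541 and 469 in Dlx2OE samples 1, 2 and 3. These were 1.67, 0.796 and 0.128 CPM in WT against 27.6, 17.2 and 17.3 CPM in Dlx2OE. Here too the groups did not overlap, and the lowest Dlx2OE sample was 10.3 times the highest WT sample. The means were 0.866 ± 0.775 CPM in WT against 20.7 ± 5.99 CPM in Dlx2OE (SD, n = 3 each), with a log2 fold change of 4.58 (SE 0.653) or 24.0-fold. Without WT sample 1 it was 5.48. Of the 17514 genes tested, 14 had a larger log2 fold change than C130021I20Rik and 27 a larger one than Lmx1b. This is the contrast by which they had been chosen. Without WT sample 2, the log2 fold changes were 3.78 for Lmx1b and 4.52 for C130021I20Rik.

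Lmx1a did not share this pattern. Its counts were 135, 44 and 38 in WT samples 1, 2 and 3 against 31, 75 and 54 in Dlx2OE samples 1, 2 and 3. As CPM, these were 4.61, 1.46 and 1.22 in WT against 1.05, 2.39 and 1.99 in Dlx2OE. The groups overlapped, with the highest value in WT sample 1 and the lowest in Dlx2OE sample 1. The means were 2.43 ± 1.89 CPM in WT against 1.81 ± 0.690 CPM in Dlx2OE (SD, n = 3 each), with a log2 fold change of -0.42 (SE 0.549). This sign rested on WT sample 1, since the log2 fold change was 0.43 without it.

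**Figure D2:**
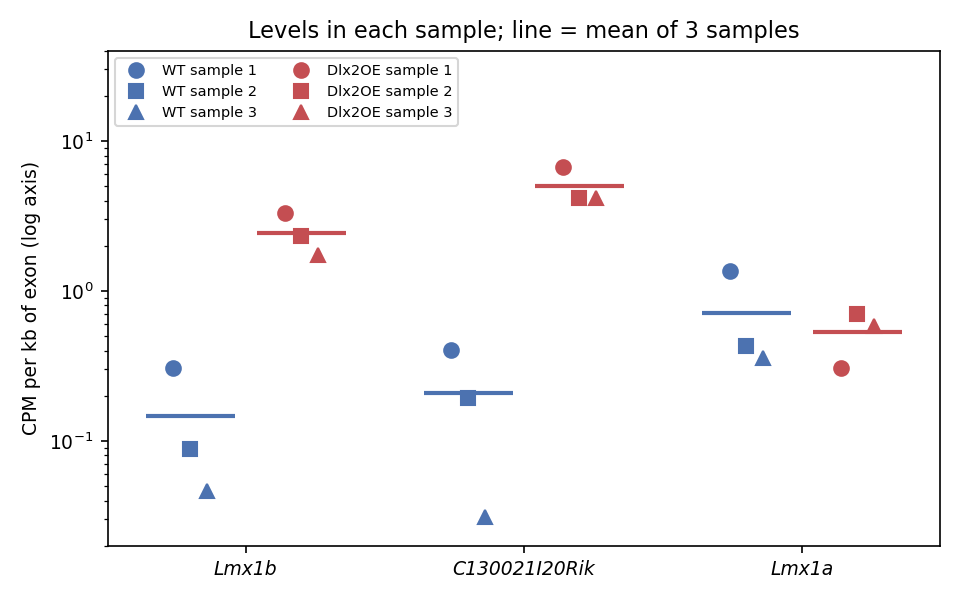
Levels of Lmx1b, C130021I20Rik and Lmx1a in each sample as CPM per kb of exon on a log axis, with WT in blue, Dlx2OE in red, a symbol for each sample number and a line at the mean of 3 samples. The Dlx2OE samples of Lmx1b (1.73 to 3.29) and C130021I20Rik (4.16 to 6.68) sit above all WT samples of these genes, whereas those of Lmx1a (0.308 to 0.703) lie within and below the WT range.

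Per kb of exon, the order of the genes differed between the genotypes. In WT, Lmx1a had the highest mean at 0.716 ± 0.558 CPM per kb, followed by C130021I20Rik at 0.209 ± 0.187 and Lmx1b at 0.147 ± 0.141 (SD, n = 3 each). The ranges of neighbours in this order overlapped, although Lmx1a was above Lmx1b in each WT sample, by 4.41, 4.86 and 7.80 times. In Dlx2OE, C130021I20Rik came highest at 5.01 ± 1.45 CPM per kb, then Lmx1b at 2.44 ± 0.788 and Lmx1a at 0.533 ± 0.203 (SD, n = 3 each), with no overlap between neighbours. Lmx1b was then above Lmx1a by 10.7, 3.29 and 2.94 times in samples 1, 2 and 3. On the scale of all genes tested, the mean CPM per kb of Lmx1b exceeded that of 4.94% of genes in WT and of 40.4% in Dlx2OE. For C130021I20Rik these shares were 7.63% and 54.7%, and for Lmx1a 22.6% and 17.9%.

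Whether the non-coding gene and Lmx1b rose together was described by the share of C130021I20Rik in the counts of the pair. This share was 52.7% (95% Wilson interval 42.6% to 62.5%), 64.9% (48.8% to 78.2%) and 36.4% (15.2% to 64.6%) in WT samples 1, 2 and 3. In Dlx2OE it was 63.3% (60.6% to 65.9%), 60.4% (57.1% to 63.5%) and 67.3% (63.7% to 70.7%) in samples 1, 2 and 3. The WT intervals are wide, since the pair had 141 counts over the WT samples against 2887 over the Dlx2OE samples, and they cover counting error only. The mean share was 51.3% ± 14.3 in WT and 63.7% ± 3.47 in Dlx2OE (SD, n = 3 each), with overlapping ranges. Per kb of exon, C130021I20Rik was 1.31, 2.18 and 0.674 times Lmx1b in WT samples 1, 2 and 3 against 2.03, 1.80 and 2.42 times in Dlx2OE samples 1, 2 and 3. Lmx1b and C130021I20Rik both had their highest level in sample 1 of each genotype. A correlation over the 6 samples is not given, since the genotypes form separate clusters of 3.

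**Figure D3:**
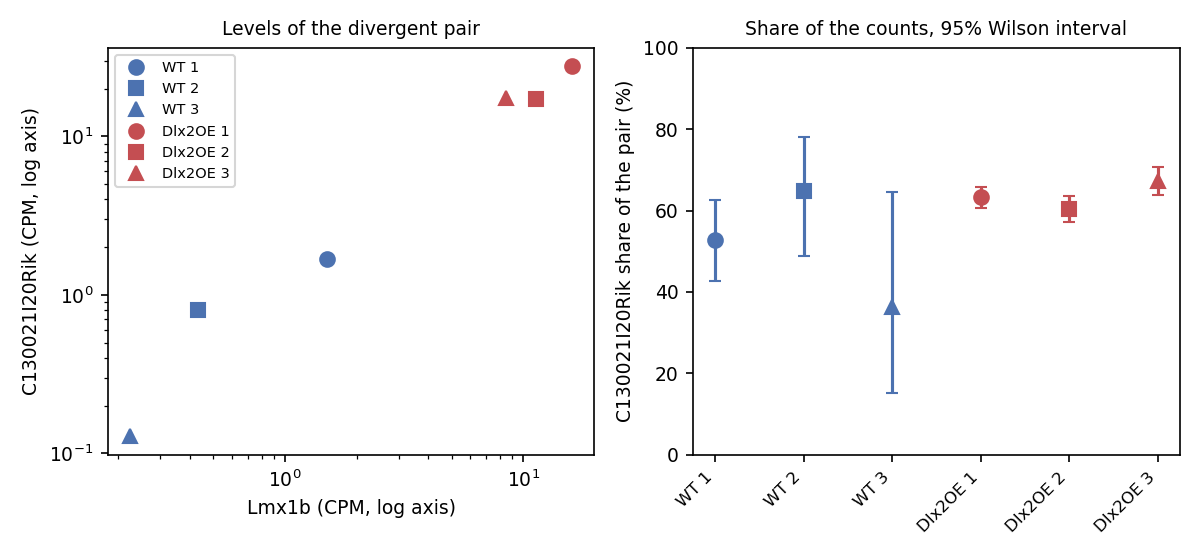
Left, C130021I20Rik against Lmx1b in CPM on log axes, 1 point per sample, with the 3 WT samples (blue) in the lower left and the 3 Dlx2OE samples (red) in the upper right. Right, the share of C130021I20Rik in the counts of the pair with its 95% Wilson interval, from 36.4% to 64.9% in WT and from 60.4% to 67.3% in Dlx2OE.

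Genes with the most similar profiles were ranked by the root mean square difference of log2 CPM over the 6 samples, each gene centred on its own mean. Lmx1b and C130021I20Rik were each other's nearest gene of all those tested, with a difference of 0.538. The profile of Lmx1a was 2.32 from that of Lmx1b. After C130021I20Rik, the nearest to Lmx1b were the antisense gene Gm43376 (0.677), the Krüppel-like zinc-finger gene Glis1 (0.702), the antisense gene Gm15726 (0.787), which overlaps another gene over 28.3% of its exon sequence, and Dkk4 (0.791), which encodes a secreted Wnt inhibitor. After Lmx1b, the nearest to C130021I20Rik were Gm43376 (0.878), Haglr (1.03), a non-coding gene of the Hoxd cluster, Glis1 (1.05) and the homeobox gene Irx4 (1.13). A gene that is much higher in Dlx2OE comes near by that alone, so the ranking holds the genotype contrast by which the pair was chosen. Nearest to Lmx1a were the blood group gene Rhd (0.269), the potassium channel gene Kcnn4 (0.269), Sptb (0.307), which encodes a spectrin chain of red cells, and the cannabinoid receptor gene Cnr2 (0.307). Rhd had 142, 66 and 72 counts in WT samples 1, 2 and 3 against 53, 121 and 69 in Dlx2OE samples 1, 2 and 3, and thus had its highest and lowest levels in the same samples as Lmx1a.

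Of 60 other genes annotated within 1 Mb of Lmx1b or C130021I20Rik, 29 were kept for the test and 10 had no count in any sample. By edgeR's quasi-likelihood F test, Benjamini-Hochberg adjusted, 0 of the 29 were called (3.12% over all genes), 9 had an unadjusted p under 0.05 (29.5% over all genes), and DESeq2 called 0 as well (4.85%). With so few genes, these counts are near the shares over all genes. Their log2 fold changes ran from -1.31 to 0.67 with a median of -0.07, with 12 higher and 17 lower. The nearest gene tested past Lmx1b was Zbtb43, a BTB zinc-finger gene 92405 bases away, with 29.0 ± 1.80 CPM in WT against 36.1 ± 4.42 CPM in Dlx2OE (SD, n = 3 each) and a log2 fold change of 0.31 (SE 0.123, adjusted p = 0.140). The next, its relative Zbtb34 at 129640 bases, had a log2 fold change of 0.54 (SE 0.163, adjusted p = 0.0806). On the other side, Mvb12b, a gene of the endosomal sorting machinery 83598 bases past C130021I20Rik, had 0.15 (SE 0.125, adjusted p = 0.433). Pbx3, a TALE homeobox gene at 525102 bases, had -0.25 (SE 0.172, adjusted p = 0.356).

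Around Lmx1a, 26 genes were annotated within 1 Mb, 8 were kept and 7 had no count. Of the 8, 0 were called by edgeR's test and 3 had an unadjusted p under 0.05, again near the 3.12% and 29.5% over all genes. The median log2 fold change was 0.15. Rxrg, a retinoid X receptor gene 49613 bases before Lmx1a, had a log2 fold change of 0.48 (SE 0.470, adjusted p = 0.520), and Mgst3, a glutathione transferase gene, had -0.56 (SE 0.195, adjusted p = 0.108). Fam78b, named after its values were seen, was the exception among the alternatives. Its log2 fold change was 1.10 with an adjusted p of 0.163, but DESeq2 called it higher, and so did edgeR without Dlx2OE sample 1.

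**Figure D4:**
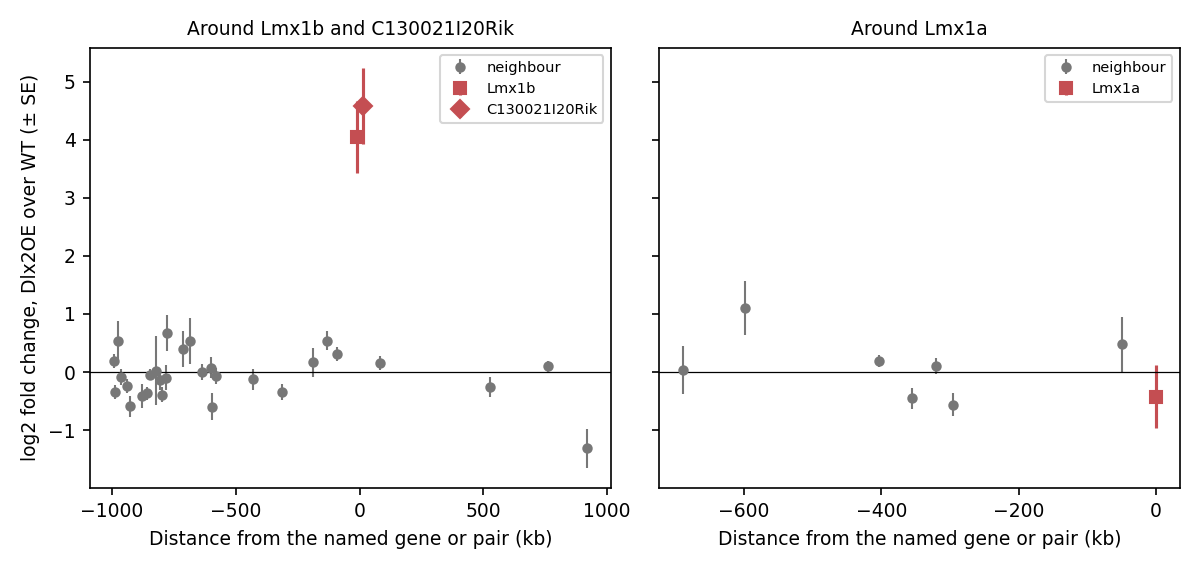
Log2 fold change of Dlx2OE over WT, with SE, for tested genes within 1 Mb against their distance in kb from Lmx1b and C130021I20Rik (left) or from Lmx1a (right). Lmx1b at 4.05 and C130021I20Rik at 4.58 (red, drawn side by side at 0 kb) stand above all 29 neighbours on chromosome 2 (grey), which run from -1.31 to 0.67, and Lmx1a at -0.42 lies among its neighbours.

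Other pairs were sought of a coding and a non-coding gene on opposite strands, read away from each other from starts within 1000 bases. The non-coding genes were those classed as antisense or in another long non-coding class. With both genes tested, such pairs numbered 263. This description was added after the values were seen, and it leaves out Lmx1b and C130021I20Rik. The coding gene was called higher in 6 pairs (2.28%, beside 1.5% of all genes) and lower in 6 (2.28%, beside 1.62%). The non-coding gene was called higher in 6 pairs (2.28%) and lower in 1 (0.38%). Both genes were called higher in 4 pairs and lower in 1, and opposite calls were found in 0 pairs. The fold changes had the same sign in 52.9% of the 263 pairs. The 4 pairs with both genes higher were Pou3f3 (log2 fold change 1.80) with Pantr1 (1.54), Irx2 (2.55) with Gm20554 (2.25), Fzd10 (2.27) with 5930412G12Rik (1.13), and Hoxd1 with Haglr. Haglr had 0, 3 and 0 counts in WT against 126, 36 and 74 in Dlx2OE samples 1, 2 and 3.

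Genes related to the Lmx1 factors or placed beside them in known pathways were described in 9 lists. Of 83 listed genes, 61 were kept for the test, 6 were called higher and 2 lower by edgeR's test, against 1.5% and 1.62% over all genes. The lists were chosen with earlier results of these data known, and the paper reports Wnt3a and Msx2 as higher. The counts of calls are therefore a description. The median log2 fold change of the 61 was -0.13, beside 0.0028 over all genes tested. The genes called included Lhx9, Wnt3a, Msx2, Wnt7a, Emx2 and Tfap2b on the higher side and Foxa1 on the lower side. These calls depended on which samples entered. Among the 6 fits that leave out a sample, edgeR's adjusted p was under 0.05 in 1 for Lhx9. It was under 0.05 in 2 for Tfap2b and Foxa1, in 3 for Wnt3a and Msx2, and in 4 for Wnt7a and Emx2. Without WT sample 2, 0 of the 8 passed, with adjusted p between 0.0868 and 0.167 for the 7 genes named, for each its largest over all alternatives, and only 39 genes were called higher over the whole table. Without WT sample 1, 0 were called higher and 1 lower. Leaving out Dlx2OE sample 2 or 3 gave 3 higher and 1 lower in either case, and leaving out Dlx2OE sample 1 gave 14 higher and 5 lower.

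Of the other LIM-homeodomain genes, 6 of 10 were tested and 1 was called. Lhx9, known in gonad, limb and brain, had 7, 14 and 14 counts in WT samples 1, 2 and 3 against 35, 135 and 47 in Dlx2OE samples 1, 2 and 3. Its log2 fold change was 2.63 (SE 0.551, adjusted p = 0.0356), at a level of 2.41 ± 1.66 CPM in Dlx2OE (SD, n = 3). Lhx6 and Lhx8, the abundant LIM-homeodomain genes of first arch mesenchyme, had log2 fold changes of -0.01 (SE 0.241) and -0.28 (SE 0.171) with overlapping groups. The sum of the 10 genes was 254 to 298 CPM in WT against 193 to 342 CPM in Dlx2OE.

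All 10 genes of the LIM-domain cofactor list, which includes LIM-only genes, were tested and 0 were called, with 2 at an adjusted p under 0.05 at any fold. Ldb1, the shared LIM-domain cofactor, had 262 ± 6.61 CPM in WT against 253 ± 14.3 CPM in Dlx2OE (SD, n = 3 each) and a log2 fold change of -0.06 (SE 0.0969, adjusted p = 0.726). Ssbp3, which stabilizes Ldb1 complexes, had 0.19 (SE 0.131, adjusted p = 0.368). Of the 10 genes, 4 had positive and 6 negative log2 fold changes. The largest, named after its value was seen, was 2.23 for the LIM-only gene Lmo1 (SE 0.542, adjusted p = 0.0511). Lmo1 had 54, 126 and 118 counts in WT samples 1, 2 and 3. In Dlx2OE samples 1, 2 and 3 it had 856, 276 and 227 counts, without overlap between the genotypes. The genes under the threshold at any fold, named after their values were seen, were both lower in Dlx2OE. Lmo4, a LIM-only protein that competes for Ldb1, had 267, 272 and 248 CPM in WT samples 1, 2 and 3 against 142, 155 and 153 CPM in Dlx2OE samples 1, 2 and 3, a log2 fold change of -0.81 (SE 0.0965, adjusted p = 0.00929). Ssbp2 had -0.55 (SE 0.124, adjusted p = 0.0422), and 22.1% of its exon sequence overlaps another gene. Where strand is ignored, HTSeq's union mode counts read pairs that fall on both genes for neither. Ldb1 and Ssbp3 were thus abundant in both genotypes.

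Among roof plate and dorsal midline genes, the setting in which Lmx1a and Lmx1b are known in the neural tube, 10 of 15 were tested, 2 were called higher and 0 lower. The list had a median log2 fold change of 0.94, with 8 genes higher and 2 lower. Wnt3a, a Wnt ligand, had 0.615, 1.76 and 1.31 CPM in WT samples 1, 2 and 3 against 11.4, 4.36 and 5.83 CPM in Dlx2OE samples 1, 2 and 3, a log2 fold change of 2.54 (SE 0.480, adjusted p = 0.0280). Msx2, a homeobox gene that responds to BMP, had 5.84, 8.46 and 9.94 CPM in WT against 35.9, 24.4 and 18.1 CPM in Dlx2OE, a log2 fold change of 1.69 (SE 0.289, adjusted p = 0.0211). Both were without overlap between the genotypes. Msx1 had 0.74 (SE 0.221, adjusted p = 0.0794) and Bmp7 had 0.06 (SE 0.262, adjusted p = 0.883). Wnt1, whose promoter drives the Cre, had 2, 0 and 0 counts in WT against 3, 1 and 3 in Dlx2OE, at or under the floor of 3 counts in every library, and was not tested.

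In the limb list, which holds the ligand Wnt7a upstream of Lmx1b, 2 of 6 genes were called higher. Wnt7a had 18, 4 and 33 counts in WT samples 1, 2 and 3 against 576, 134 and 163 in Dlx2OE samples 1, 2 and 3. The WT mean was 0.602 ± 0.463 CPM and the Dlx2OE mean 9.91 ± 8.30 CPM (SD, n = 3 each), with a log2 fold change of 4.03 (SE 0.789, adjusted p = 0.0306). As for Lmx1b, the highest level was in Dlx2OE sample 1 and the groups did not overlap. The same held for Wnt3a, Msx2, Emx2, Tfap2b and Lmo1, whereas Lhx9 was highest in Dlx2OE sample 2. Of all genes tested, 16.7% were higher in Dlx2OE without overlap. Emx2, a homeobox gene of the limb girdles and forebrain, had a log2 fold change of 1.61 (SE 0.279, adjusted p = 0.0218), with 8.79% of its exon sequence overlapping another gene. Of the small proteoglycans that depend on Lmx1b in the limb, Lum had -0.14 (SE 0.220, adjusted p = 0.689) and Dcn had 0.70 (SE 0.381, adjusted p = 0.252). Kera, named after its values were seen, had 2.00 (SE 0.777, adjusted p = 0.137), with 0.991, 9.86 and 2.21 CPM in WT samples 1, 2 and 3 against 28.6, 9.04 and 14.7 CPM in Dlx2OE samples 1, 2 and 3, and its groups overlapped.

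In the neuronal lists of the Lmx1 factors, 2 genes were called lower and 0 higher. In the midbrain dopaminergic list, 8 of 10 genes were tested and Foxa1, a forkhead gene of floor plate and epithelia, fell by 2.11 on the log2 scale (SE 0.423, adjusted p = 0.0327), whereas Nr4a2 had 0.03 (SE 0.215). Of these 8 genes, 2 had positive and 6 negative log2 fold changes. Th, named after its values were seen, had 8, 49 and 24 counts in WT samples 1, 2 and 3. In Dlx2OE samples 1, 2 and 3 it had 2, 359 and 543 counts. Its log2 fold change was 3.55 (SE 1.33, adjusted p = 0.127), and its groups overlapped. In the serotonergic list, 4 of 8 were tested and 1 was called lower. Gata2 had -0.65 (SE 0.372, adjusted p = 0.274). The terminal serotonergic gene Tph2 had 3, 6 and 3 counts in WT against 2, 15 and 12 in Dlx2OE, under the filter. In the list of the midbrain-hindbrain organiser, 7 of 11 were tested and 0 called. Otx2 had a log2 fold change of -3.18 (SE 0.862, adjusted p = 0.0628) and Sp8 -1.40 (SE 1.12, adjusted p = 0.425).

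Periocular mesenchyme, a neural crest tissue in which Lmx1b is known, was represented by 7 genes, all tested, of which Tfap2b was called higher with a log2 fold change of 1.58 (SE 0.371, adjusted p = 0.0464). The other 6 had negative values. Col8a2, a collagen of the cornea, had -0.69 (SE 0.154, adjusted p = 0.0422) and passed the test only at any fold, as did Cyp1b1, a cytochrome P450 of the eye, with -0.73 (SE 0.137, adjusted p = 0.0280). Of 7 podocyte genes, 3 were tested and 0 called. Cd2ap had 0.21 (SE 0.137, adjusted p = 0.333) and Podxl 0.40 (SE 0.150, adjusted p = 0.130), while Nphs1, which encodes nephrin, had at most 4 counts in a sample.

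**Figure D5:**
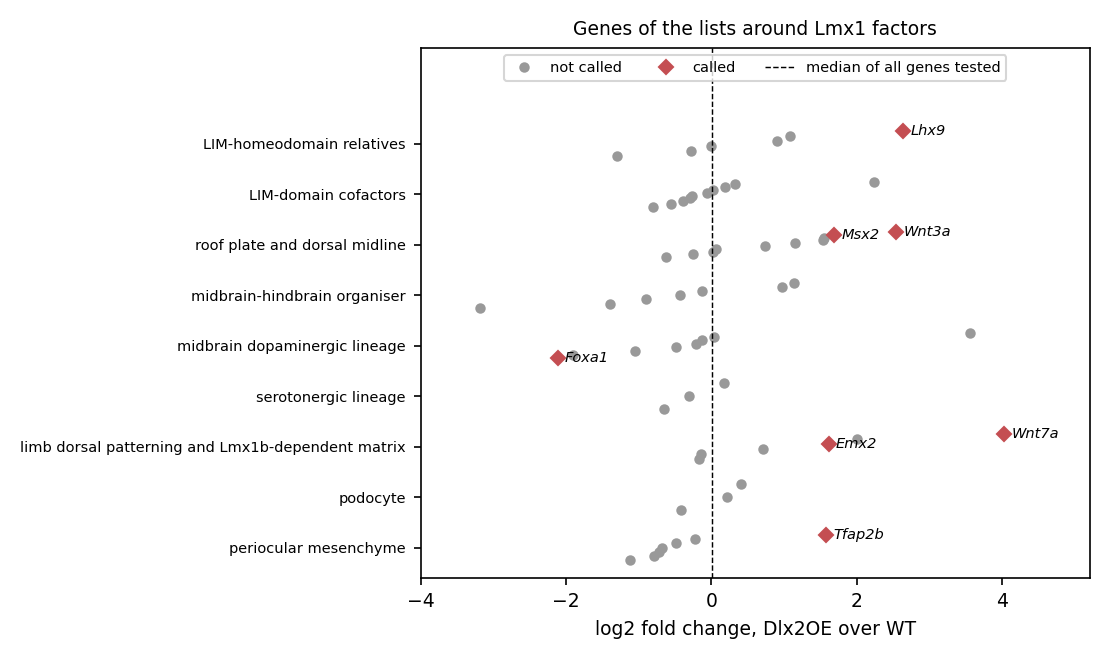
Log2 fold change of Dlx2OE over WT for tested genes of the 9 lists, 1 point per gene, with the genes called by edgeR in red and a dashed line at the median of all genes tested (0.0028). The called genes shown are Lhx9, Wnt3a, Msx2, Wnt7a, Emx2 and Tfap2b to the right and Foxa1 to the left.

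The tissue held the markers its label calls for, and markers of other cell types were present too. The 8 mesenchyme markers of the maxilla, including Prrx1, Twist1 and Barx1, were all tested and summed to 1164 to 1425 CPM in WT against 1485 to 1890 CPM in Dlx2OE, with Alx4 called higher (log2 fold change 1.39) and Pax9 lower (-1.10). Those of neurons summed to 67.3, 301 and 180 CPM in WT samples 1, 2 and 3 and to 183, 457 and 935 CPM in Dlx2OE, with 8 of 8 genes having positive log2 fold changes and 0 called. Brain neuroepithelium markers summed to 204 to 285 CPM in WT against 185 to 329 CPM in Dlx2OE, with Sox2 called lower and Hes5 at 2 to 9 counts. Of the 8 tested, 2 had positive and 6 negative log2 fold changes, with a median of -0.66. The 8 surface epithelium markers summed to 662 to 1178 CPM in WT against 1654, 531 and 525 CPM in Dlx2OE samples 1, 2 and 3. The high sum of Dlx2OE sample 1, which was also highest in Lmx1b and C130021I20Rik, came mainly from Krt5 (538 CPM) and Krt14 (490 CPM), whereas Epcam, Cdh1, Krt8 and Krt18 were highest in WT sample 2. Krt8 and Krt18 were called lower, with log2 fold changes of -2.11 and -1.85. Endothelial markers summed to 246 to 378 CPM in WT against 178 to 279 CPM in Dlx2OE, with 5 of 5 log2 fold changes negative and 0 called. The part of these markers in the levels of Lmx1b and C130021I20Rik was not tested. In whole tissue, fewer cells of a type and less RNA per cell cannot be told apart.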

How the data were processed

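Total RNA of dissected E12.5 maxillary prominences was poly-T selected, and libraries that do not mark strand were sequenced as 150-base read pairs. The methods give 6 littermates as the source and the labels 7, so a sample may pool embryos. The paper describes the 3 samples per genotype as independent biological replicates. It is not stated whether each is a separate embryo, and p-values measure only the spread between these samples. The authors filtered the reads, checked them with FastQC, aligned them to mm10 with STAR 2.7.3a and counted them per gene with HTSeq 0.12.4 in union mode. The annotation release and the strand setting of the counting are not given in the sources used here. The deposited values are raw counts per gene for 53801 genes, and the 5 summary lines of each file were kept out of library sizes and tests.

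The test was run in edgeR 4.0.16 (R 4.3.3) on all 6 samples by genotype alone, after filterByExpr (minimum count 10) and TMM scaling, with the quasi-likelihood F test and Benjamini-Hochberg adjustment over 17514 genes. A gene was called where its log2 fold change was beyond 1 with an adjusted p under 0.05, the thresholds in the study's methods. The SE was the log2 fold change divided by the square root of F. Log2 CPM used a prior count of 2. Symbols and positions came from GENCODE M21, which holds 53706 of the identifiers and lacks 95. Wilson intervals are at 95%. Alternatives were DESeq2 1.42.0, RLE size factors, total counts, no filter, a replicate block, a prior count of 0.5, calls at any fold, other windows, and each sample left out. The fit was tested on simulated data.

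Lmx1a, Lmx1b and C130021I20Rik, the gene lists and the naming rule were chosen with earlier results of these data known. Named genes were the nearest 2 tested genes on either side of each locus, the called genes and the 2 most abundant tested genes of each list, and the 5 most alike profiles. The windows were 1 Mb. No sequence or value from chromosome 18 was used. Some genes that the naming rule selects are not reported here, though counts and medians of the lists and windows include them.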

Additional observations from a re-analysis of the deposited data

Results flagged for a closer look

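Read pairs that fell on no annotated gene, which the comparisons do not use, made up a larger share of every Dlx2OE library than of any WT library (5.03% to 5.43%). The share was 5.75% in Dlx2OE sample 1, 7.81% in Dlx2OE sample 2 and 14.7% in Dlx2OE sample 3. Without Dlx2OE sample 3, the log2 fold change was 4.25 for Lmx1b, 4.70 for C130021I20Rik and -0.50 for Lmx1a. The part of this difference in the levels of these genes was not tested.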

How the results depend on the processing

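With only 4 to 49 counts in a WT library, the fold changes of Lmx1b and C130021I20Rik depend on which WT samples enter. Over the 6 fits that leave out a sample, the log2 fold change ran from 3.61 to 5.16 for Lmx1b, from 4.06 to 5.48 for C130021I20Rik and from -0.75 to 0.43 for Lmx1a, whose sign turned without WT sample 1. DESeq2, RLE size factors, total counts and no filter gave 4.03 to 4.14 for Lmx1b, 4.56 to 4.67 for C130021I20Rik and -0.45 to -0.32 for Lmx1a.

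Counts of called genes moved more. Genes called higher over the whole table numbered 452 with DESeq2, 506 without a filter, 524 at any fold, and 39 to 642 with a sample left out. Genes called lower numbered 442, 497, 606 and 35 to 531 in the same order. In the 9 lists, genes called higher numbered 10 with DESeq2, 11 without a filter and 0 to 14 with a sample left out, and genes called lower 6 with DESeq2, 6 without a filter, 6 at any fold and 0 to 5 with a sample left out. Around Lmx1a, 1 gene was called higher with DESeq2 and 0 to 1 with a sample left out, and 1 was called lower in a window of 2 Mb. The causes were not tested, other than that fewer samples or other genes entered.

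The replicate numbers of the labels gave no clear pairing of the samples (correlations of same-numbered deviations -0.0718, -0.211 and 0.0731). The highest correlation, 0.345, was between WT sample 1 and Dlx2OE sample 2. With 3 samples per genotype, these values cannot exclude a pairing. With the replicate block, the log2 fold change was 4.32 for Lmx1b, 4.84 for C130021I20Rik and -0.20 for Lmx1a, 202 genes were called higher and 196 lower, and Bmp7 turned to -0.000125.

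Signs of uncalled genes near 0 turned in some fits. With total counts, Ldb1 was 0.013 and Lhx6 0.068. With a sample left out, Bmp7 ran from -0.33 to 0.23 (-0.068 without WT sample 1), Lhx6 from -0.25 to 0.23 (0.09 without WT sample 1), Lum from -0.31 to 0.14, Nr4a2 from -0.17 to 0.18 (-0.10 without WT sample 2) and Rxrg from -0.079 to 0.86.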
